A study of Danio rerio with 24 samples.

Results

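The heat shock proteins and their co-chaperones were examined in whole zebrafish embryos, as the 91 genes of the 23219 in the deposited count table whose symbols place them in the Hsp70, Hsp90, small Hsp, DnaJ or CCT families or among the mitochondrial chaperonins. Symbols beginning hspa, hspb, hspd, hspe, hsp plus a digit, dnaj, or cct plus a digit were taken, and hspbap1 and ccdc symbols were left out. The 91 genes comprised 16 of the Hsp70 family, 4 of the Hsp90 family, 9 small Hsps, 51 DnaJ proteins (5 of class A, 14 of class B and 32 of class C), 8 entries for CCT subunits, the mitochondrial pair hspd1 and hspe1, and the Hsp70 nucleotide exchange factor hspbp1. Of these, 90 passed the filter on low counts and were tested; dnajc22, with at most 11 counts in any library, was not.

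Embryos were wild type or Meevs, the label for offspring whose mothers lacked eevs, the gene of the enzyme that begins the synthesis of the fish sunscreen gadusol. Embryos of each genotype were kept in the dark at 28.5 °C, and at 24 h after fertilisation they received either 450 J of UVB (the labels give no area) or a mock exposure. Collection followed 5 h or 24 h later, at 29 or 48 h after fertilisation. The 8 groups, with 3 libraries each, were wild type mock, wild type UVB, Meevs mock and Meevs UVB at each time. For an effect of UVB, time since exposure and embryo age cannot be told apart. RNA of whole embryos was used, so fewer cells of a type and less RNA per cell cannot be told apart. The labels do not say whether the 3 libraries of a group came from separate clutches, so the p-values measure the spread between these libraries only.

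Chaperones keep other proteins folded. Hsp70 proteins bind exposed stretches of unfolded chains in cycles driven by ATP, DnaJ proteins deliver the chains and start the hydrolysis, nucleotide exchange factors end the cycle, and Hsp90 completes the folding of kinases, receptors and muscle myosin. Small Hsps hold unfolding proteins without ATP, the cytosolic ring complex CCT folds actin and tubulin, and the mitochondrion and the endoplasmic reticulum carry chaperones of their own. Several of these genes are transcribed through heat shock factor when proteins misfold, whereas the reticulum set answers to the unfolded protein response.

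Library totals lay between 22395870 and 44691629 counts, and the chaperone genes held 1.54% to 2.17% of them. All wild type libraries carry one library series in the labels and all Meevs libraries another, so genotype and series cannot be told apart. The transcript of eevs itself was low, and since the label names the genotype of the mother it checks no label. It was at most 0.794 CPM (read counts scaled to library size) in wild type, and in Meevs at 0.1 to 0.302 CPM in mock and 2.03 to 2.54 CPM after UVB at 5 h, and at 1.51 to 3.08 CPM in mock and 0.49 to 0.801 CPM after UVB at 24 h. One library stood apart in these genes: in wild type mock replicate 2 at 24 h, 11 of the 88 chaperone genes with a mean of at least 1 CPM were at least 1.5 times the mean of the other 2 replicates, against 0 to 3 in each other library. The genes were hsp70.1, hsp70.2, hsp70.3, hsp70l, hspa1b, hspa8b, hsp90aa1.1, hspb1, hspb6, hspb9 and hspb11. Several results at 24 h in wild type are therefore also given without it. For the genes just named, leaving it out lowers the mock level by construction, so such fits are no independent test of them.

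In the text, a level is CPM on library sizes scaled by the trimmed mean of M values, given per library in the order of replicates 1 to 3, and an effect is a log2 fold change ± its standard error with 3 libraries in each group. Levels are not compared between genes, because transcript lengths were not used. "Rose" and "fell" are used for an adjusted p under 0.05 in edgeR's quasi-likelihood test with Benjamini-Hochberg adjustment over all 22340 genes tested.

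At 5 h after UVB, chaperone transcripts were mostly higher in both genotypes. In wild type 26 of the 90 rose and 4 fell, which is 33.3% of them against 12.7% of all genes tested (6.67% higher and 6.06% lower). The median effect was 0.159 for the chaperone genes and 0.004 for all genes. In Meevs 40 rose and 7 fell, 52.2% against a background of 34.4% (19.1% higher and 15.3% lower), with medians of 0.223 and 0.055. Of the 26 genes that rose in wild type, 25 also rose in Meevs, cct5 being the exception, and the 4 that fell in wild type fell in Meevs too. How many of all genes called in wild type were also called in Meevs was not computed. The agreement is therefore not shown to be particular to chaperone genes. UVB and mock libraries did not overlap for all 30 called genes in wild type and for 46 of 47 in Meevs. A call with 3 libraries in each group makes such separation likely. It also held for 19 uncalled chaperone genes in wild type and 7 in Meevs, and its share over all genes was not computed. The chaperone genes' share of all counts moved as well, being 1.85% to 1.93% in wild type mock libraries and 1.99% to 2.17% after UVB, with 1.89% to 1.94% and 2.03% to 2.09% in Meevs.

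Some markers of other cell types moved at 5 h too. Of 15 keratinocyte markers 7 fell in wild type, where their summed level was 20450 to 22160 CPM in mock and 16250 to 19120 CPM after UVB, and 9 fell in Meevs (28750 to 30810 CPM and 20110 to 21520 CPM). Of 18 markers of ciliated cells 2 rose in wild type (88.09 to 100.2 CPM and 105.3 to 107.3 CPM) and 6 in Meevs (104.1 to 112.7 CPM and 131.6 to 137.8 CPM). These ciliated cell calls were 11.1% and 33.3%, near the 12.7% and 34.4% of all genes, while the keratinocyte calls were 46.7% and 60%. Of 23 skeletal muscle markers 2 rose in wild type, and 1 rose and 3 fell in Meevs. Of 11 heart muscle markers 2 rose in each genotype, and of 15 lens markers 0 were called in either. The part of these shifts in the chaperone levels was not tested.

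**Figure D1:**
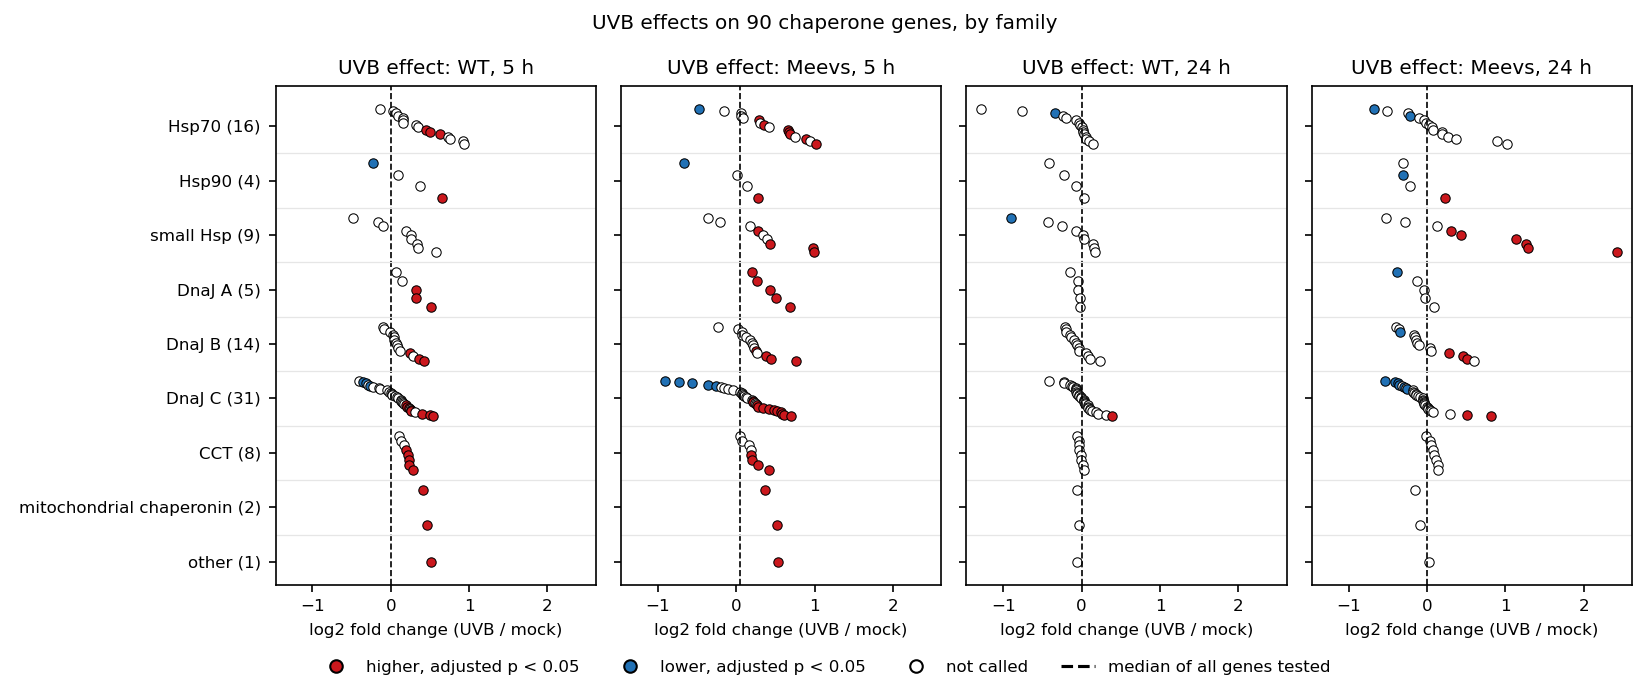
Effect of UVB on each of the 90 tested chaperone genes, by family (number of genes in parentheses), in wild type (WT) and Meevs embryos at 5 h and 24 h. The horizontal axis is the log2 fold change of UVB over mock, each circle is 1 gene, red and blue circles passed the test as higher or lower, and the dashed line is the median of all genes; at 5 h most circles lie to the right of it in both genotypes, while at 24 h the red circles of Meevs are led by small Hsps.

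The families did not share one pattern at 5 h. Among the 16 Hsp70 genes 3 rose and none fell in wild type, and 7 rose and 1 fell in Meevs. All 5 DnaJ A genes rose in Meevs and 3 of them in wild type, whereas in class C risers and fallers occurred together, 8 and 3 in wild type and 12 and 5 in Meevs. Of the 8 CCT entries 5 rose in wild type (median 0.207) and 4 in Meevs (median 0.189), and both mitochondrial chaperonin genes rose in both. Among the 9 small Hsps no gene passed edgeR's test in wild type, where 4 had an unadjusted p under 0.05 and DESeq2 called 0, while in Meevs 4 rose. These counts depended on single libraries: 15 of the 30 wild type calls, all of them rises, and 29 of the 47 Meevs calls remained in every fit that left out 1 library of the groups compared, and without wild type UVB replicate 1 at 5 h the wild type count was 16.

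Among the cytosolic Hsp70 and Hsp90 genes, hspa4a rose in both genotypes. Its protein belongs to the Hsp110 group, which acts as a nucleotide exchange factor for Hsp70, and the gene lies on chromosome 21 (GRCz11, 43137500 to 43171249). In wild type at 5 h its levels were 126, 108 and 118 CPM in the mock libraries and 193, 188 and 166 CPM in the UVB libraries. In Meevs they were 163, 143 and 127 CPM in mock and 219.6, 247 and 231 CPM after UVB. Every UVB library was above every mock library of its genotype, and hspa4a rose by 0.63 ± 0.10 in wild type (adjusted p = 0.000118) and by 0.69 ± 0.10 in Meevs (adjusted p = 5.96e-06).

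Of the Hsp90 genes, the inducible hsp90aa1.2 rose in wild type from 55.1, 46.7 and 51.7 CPM to 90.8, 82.0 and 70.0 CPM, an effect of 0.66 ± 0.11 (adjusted p = 0.000147). In Meevs the mock libraries already stood at 96.6, 83.7 and 86.2 CPM and the UVB libraries at 103, 117 and 104 CPM. The Meevs mock level thus lay within the range of wild type after UVB or above it, and the rise in Meevs was 0.28 ± 0.11 (adjusted p = 0.0395). That call was lost in 5 of 6 fits that left out a library, with adjusted p from 0.0924 without Meevs UVB replicate 1 to 0.307 without Meevs UVB replicate 2; Meevs UVB replicate 3 and Meevs mock replicates 2 and 3 were the others. Its close neighbour hsp90aa1.1, the Hsp90 gene of zebrafish muscle, lies on the same strand of chromosome 20 with 690 bp between the genes. It was at 719, 684 and 702 CPM in wild type mock and 921, 969 and 831 CPM after UVB, without overlap, but its effect of 0.37 ± 0.21 did not pass (adjusted p = 0.265).

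The most counted chaperones of the embryo changed little. The constitutive Hsp70 gene hspa8 and the constitutive Hsp90 gene hsp90ab1 together held 54.9% to 57.1% of all chaperone counts in wild type mock libraries at 5 h. The wild type effect of UVB on hspa8 at 5 h was 0.16 ± 0.08 (adjusted p = 0.197) and on hsp90ab1 0.09 ± 0.07 (adjusted p = 0.448). In Meevs they were 0.06 ± 0.08 (adjusted p = 0.581) and 0.01 ± 0.07 (adjusted p = 0.962). Neither gene passed the test at 5 h in either genotype.

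Some DnaJ partners of the cytosolic Hsp70 rose with hspa4a. Of the 14 class B genes 3 rose and 0 fell in wild type, with a class median of 0.07. In Meevs 4 rose and 0 fell, with a median of 0.21. The background was 12.7% in wild type and 34.4% in Meevs for calls either way, and 6.67% and 19.1% for rises alone. The class B share in Meevs lay under 34.4% and over 19.1%, so the class showed no clear excess there. The class A gene dnaja1 went in wild type from 36.9, 27.5 and 31.7 CPM to 49.3, 46.2 and 42.5 CPM. In Meevs it went from 37.4, 33.7 and 23.8 CPM to 53.0, 50.4 and 49.7 CPM. Mock and UVB libraries were separate in both genotypes, and the rises were 0.52 ± 0.11 (adjusted p = 0.00147) and 0.69 ± 0.11 (adjusted p = 1.36e-05). Its class B counterpart dnajb1b, whose human relative is a classic heat shock gene, rose by 0.42 ± 0.08 in wild type (adjusted p = 0.000883) and 0.38 ± 0.08 in Meevs (adjusted p = 0.000626). The second copy dnajb1a rose by 0.36 ± 0.09 (adjusted p = 0.00632) and 0.25 ± 0.09 (adjusted p = 0.0287), the latter call being lost in each of the 6 fits that left out a Meevs library (adjusted p from 0.0528 to 0.196). The exchange factor hspbp1 rose by 0.51 ± 0.12 in wild type (adjusted p = 0.00516) and 0.54 ± 0.12 in Meevs (adjusted p = 0.000684).

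A pair of ribosome-bound chaperones moved together. In mammals the proteins of hspa14 and dnajc2 form the ribosome-associated complex that meets new chains as they leave the ribosome. In wild type hspa14 was at 68.1, 66.6 and 64.7 CPM in mock and 112, 91.1 and 80.8 CPM after UVB, and dnajc2 was at 65.2, 55.9 and 58.1 CPM and at 98.2, 79.5 and 76.3 CPM. No UVB library of either gene fell into the mock range. The rises of hspa14 were 0.51 ± 0.09 in wild type (adjusted p = 0.000248) and 0.68 ± 0.09 in Meevs (adjusted p = 7.63e-07), and those of dnajc2 were 0.50 ± 0.09 (adjusted p = 0.000542) and 0.70 ± 0.09 (adjusted p = 1.27e-06). A further DnaJ gene with a ribosomal role in humans, dnajc21, which acts in maturation of the large subunit, rose by 0.53 ± 0.10 (adjusted p = 0.000542) and 0.57 ± 0.10 (adjusted p = 4.76e-05).

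The CCT subunits showed small shifts in the same direction. All 8 entries had positive effects at 5 h in both genotypes, with a range of 0.103 to 0.289 in wild type and of 0.054 to 0.425 in Meevs. The largest was cct7, on chromosome 7, at 522, 535 and 517 CPM in wild type mock and 694, 621 and 608 CPM after UVB. In Meevs it was at 676, 649 and 721 CPM in mock and 937, 895 and 915 CPM after UVB. Mock and UVB libraries did not overlap in either genotype, and cct7 rose by 0.29 ± 0.07 (adjusted p = 0.00396) and 0.42 ± 0.07 (adjusted p = 1.2e-05). The rises of cct4, cct5, cct6a and cct8 in wild type were 0.20 to 0.24 in effect and were all lost without wild type UVB replicate 1 at 5 h, which left cct7 as the only CCT gene called (adjusted p of the others from 0.193 to 0.289); each of these was also lost without mock replicate 1 or 3, and cct4 and cct6a without mock replicate 2. The symbol cct2 stands for 2 gene entries 12864 bp apart on chromosome 4, whose reads may be split between them, and neither passed (0.10 ± 0.07 and 0.13 ± 0.08 in wild type).

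Mitochondrial chaperones rose at 5 h as well. For these and the next comparisons the genes were grouped by the compartment their proteins are known to work in; the grouping was made after the values were seen and no test was run on it. Of 10 mitochondrial genes 5 rose in wild type, and in Meevs 7 rose and 1 fell. Over all genes 6.67% rose in wild type, and 19.1% rose and 15.3% fell in Meevs. Fits that left out 1 library gave 3 to 5 mitochondrial rises in wild type and 5 to 7 in Meevs. The group may not be complete. The gene of the matrix Hsp70, hspa9, went in wild type from 286, 267 and 272 CPM to 397, 379 and 355 CPM. In Meevs it went from 325, 317 and 289.8 CPM to 509, 485 and 478 CPM. The lowest UVB library was above the highest mock library in both genotypes, and the rises were 0.46 ± 0.07 (adjusted p = 0.000151) and 0.66 ± 0.07 (adjusted p = 1.07e-07). The chaperonin subunits hspd1 (Hsp60) and hspe1 (Hsp10) lie head to head on chromosome 9 with 233 bp between them. In wild type hspd1 rose by 0.46 ± 0.08 (adjusted p = 0.000436) and hspe1 by 0.42 ± 0.08 (adjusted p = 0.000828), and in Meevs the rises were 0.52 ± 0.08 (adjusted p = 1.66e-05) and 0.36 ± 0.08 (adjusted p = 0.000693).

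Genes of the endoplasmic reticulum went both ways. Of the 10 genes grouped here 3 fell and 2 rose in wild type, and 4 fell and 2 rose in Meevs. Over all genes 6.06% fell and 6.67% rose in wild type, and 15.3% fell and 19.1% rose in Meevs. The group is not complete: dnajb12a and dnajc25, whose mammalian relatives also work in the reticulum, were not in it and rose in both genotypes. For dnajb12a the effects were 0.25 ± 0.07 in wild type (adjusted p = 0.0174) and 0.44 ± 0.07 in Meevs (adjusted p = 1.62e-05). For dnajc25 they were 0.40 ± 0.11 (adjusted p = 0.0196) and 0.61 ± 0.12 (adjusted p = 0.000297). Both wild type calls were lost in 4 of 6 fits that left out a library. Further members that may belong there, dnajb12b, dnajb14, dnajc14, dnajc16 and dnajc18, were outside it too, and none was called in wild type. In Meevs dnajc14 (0.58 ± 0.18, adjusted p = 0.0139) and dnajc18 (0.27 ± 0.08, adjusted p = 0.00592) rose. The dnajc14 call was lost without UVB replicate 3 or mock replicate 3 (adjusted p = 0.253 and 0.172). The dnajc18 call was lost without UVB replicate 3 (adjusted p = 0.15). The gene of the reticulum Hsp90, hsp90b1 (Grp94, chromosome 4, 9836465 to 9843836), was at 231, 231 and 209 CPM in wild type mock and 187, 187 and 199 CPM after UVB. In Meevs it was at 296, 307 and 308 CPM in mock and at 187, 202 and 183 CPM after UVB. Mock libraries lay above UVB libraries in both genotypes, and the UVB libraries of the 2 genotypes overlapped. The effect was -0.23 ± 0.06 in wild type (adjusted p = 0.0158) and -0.67 ± 0.06 in Meevs (adjusted p = 4.72e-09).

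The gene of the reticulum Hsp70, hspa5 (BiP, chromosome 5), was at 302, 269 and 252 CPM in wild type mock and 252, 258 and 239.8 CPM after UVB. In Meevs it was at 400.1, 356 and 341 CPM in mock and 254, 281 and 253 CPM after UVB. Only the Meevs libraries were separate, where hspa5 fell with an effect of -0.48 ± 0.08 (adjusted p = 1.68e-05); in wild type the effect was -0.13 ± 0.08 (adjusted p = 0.265). The BiP co-chaperone dnajc3a was at 17.1, 15.8 and 15.2 CPM in wild type mock and 13.5, 14.3 and 10.8 CPM after UVB. In Meevs its mock libraries were at 21.5, 19.4 and 17.7 CPM and its UVB libraries at 11.3, 10.6 and 9.18 CPM, and neither genotype showed overlap. It had the most negative effect of any chaperone gene in Meevs, -0.91 ± 0.11 (adjusted p = 1.92e-07), beside -0.32 ± 0.10 in wild type (adjusted p = 0.0408), and its second copy dnajc3b fell in both (-0.27 ± 0.07, adjusted p = 0.0112, and -0.26 ± 0.07, adjusted p = 0.00687).

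The falls in wild type were less secure than those in Meevs. Leaving out 1 library ended the wild type call of hsp90b1 without mock replicate 1 or 2 or UVB replicate 1 or 2 (adjusted p from 0.0633 to 0.0713). It ended that of dnajc3a without any library except UVB replicate 2 (adjusted p from 0.0583 to 0.204), and that of dnajc3b without mock replicate 1 or UVB replicate 1 (adjusted p = 0.0788 and 0.0897). All 7 falls in Meevs remained in every such fit. The genes of the group of 10 that rose, dnajc1 and dnajc10, a disulfide reductase, were named after their values were seen. Of these, dnajc10 rose by 0.26 ± 0.07 in wild type (adjusted p = 0.0126) and 0.22 ± 0.07 in Meevs (adjusted p = 0.0136). Its wild type call was lost without mock replicate 3 or UVB replicate 1 (adjusted p = 0.0943 and 0.0673), and its Meevs call without mock replicate 3 or any UVB replicate (adjusted p from 0.0631 to 0.236). The dnajc1 call was lost in wild type without mock replicate 1 or UVB replicate 1 or 3 (adjusted p from 0.0511 to 0.175) and remained in all Meevs fits.

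**Figure D2:**
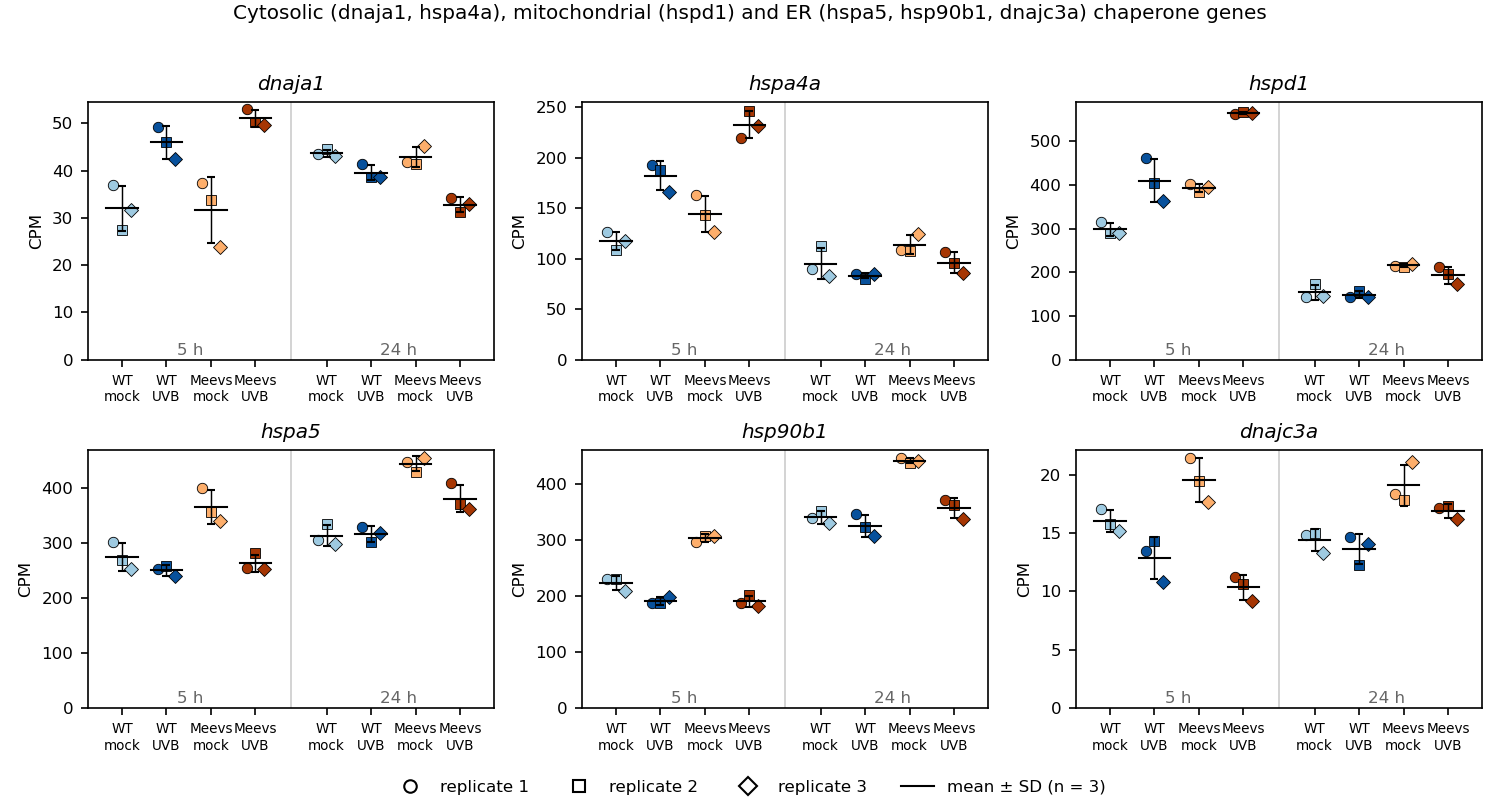
Levels in CPM (linear axis) of 6 chaperone genes of the cytosol (dnaja1, hspa4a), mitochondrion (hspd1) and endoplasmic reticulum (hspa5, hsp90b1, dnajc3a) in all 24 libraries, with each library as a point and the mean ± SD of 3 libraries. At 5 h the UVB points of dnaja1, hspa4a and hspd1 lie above the mock points in both genotypes, and those of hsp90b1 and dnajc3a lie below them.

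Outside the reticulum group dnajc17 fell in both genotypes, and dnajc15 and dnajc5gb fell in Meevs only. The effect on dnajc5gb was -0.57 ± 0.11 in Meevs (adjusted p = 0.000257) and -0.29 ± 0.11 in wild type (adjusted p = 0.0681). Its mock and UVB libraries were separate in both genotypes. The gene dnajc17, whose human protein is nuclear, was at 8.33, 9.33 and 8.38 CPM in wild type mock and 7.06, 6.84 and 6.46 CPM after UVB, and at 10.1, 10.2 and 10.3 CPM and 6.66, 5.94 and 5.81 CPM in Meevs. Mock and UVB libraries did not overlap. Its effects were -0.36 ± 0.10 (adjusted p = 0.0219, lost without wild type mock replicate 2, UVB replicate 2 or UVB replicate 3, with adjusted p from 0.0535 to 0.102) and -0.73 ± 0.11 (adjusted p = 4.82e-06). With 100458 bp it is the longest chaperone gene in the table and the only one over 100 kb. Effects at 5 h ran with gene span over all genes: genes up to 10 kb had a median of 0.084 in wild type and 0.146 in Meevs, and genes over 100 kb had medians of -0.239 and -0.475. Chaperone genes up to 10 kb (34 genes) had medians of 0.181 and 0.263 and those of 10 to 30 kb (45 genes) 0.175 and 0.239, each above the median of all genes of that span.

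The heat-inducible Hsp70 genes, the textbook reporters of protein damage, were low and variable. Of the 6 genes in this group none passed edgeR's test in wild type at 5 h, with a median effect of 0.74, 3 genes at an unadjusted p under 0.05 and 0 called by DESeq2. In Meevs 2 rose, with a group median of 0.82. The most counted of them, hsp70.3 on chromosome 3, was at 14.15, 13.90 and 12.03 CPM in wild type mock and 22.8, 24.9 and 18.9 CPM after UVB. In Meevs it was at 19.4, 14.9 and 12.6 CPM in mock and 24.2, 36.1 and 26.3 CPM after UVB. The libraries were separate in both genotypes. Its effect was 0.73 ± 0.25 in wild type (adjusted p = 0.0531) and 0.89 ± 0.25 in Meevs (adjusted p = 0.00668), and the Meevs call was lost without UVB replicate 2 (0.64, adjusted p = 0.088) or mock replicate 3 (0.71, adjusted p = 0.0601).

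Next to it, hsp70.2 went in Meevs from 3.88, 2.90 and 3.11 CPM to 5.81, 9.35 and 4.51 CPM, a rise of 1.02 ± 0.34 (adjusted p = 0.0196). Replicate 2 after UVB was the highest library, and without it the effect was 0.60 (adjusted p = 0.241); the call was also lost without mock replicate 2 (adjusted p = 0.0718) or 3 (adjusted p = 0.0763). In wild type the effect was 0.76 ± 0.34 (adjusted p = 0.152). The genes hsp70.1, hsp70.2 and hsp70.3 lie within 26112780 to 26127091 on chromosome 3 and are near copies, so counts may be divided among them. For the others at 5 h, effects in wild type and Meevs were 0.92 ± 0.45 and 0.76 ± 0.39 for hsp70.1, 0.93 ± 0.49 and 0.94 ± 0.41 for hsp70l, 0.32 ± 0.42 and 0.30 ± 0.40 for hspa1b, and 0.35 ± 0.44 and 0.41 ± 0.45 for hspa8b, none passing the test. Without 4 libraries that an earlier analysis of the same data had set apart, 1 gene of the group was called in wild type and 0 in Meevs.

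**Figure D3:**
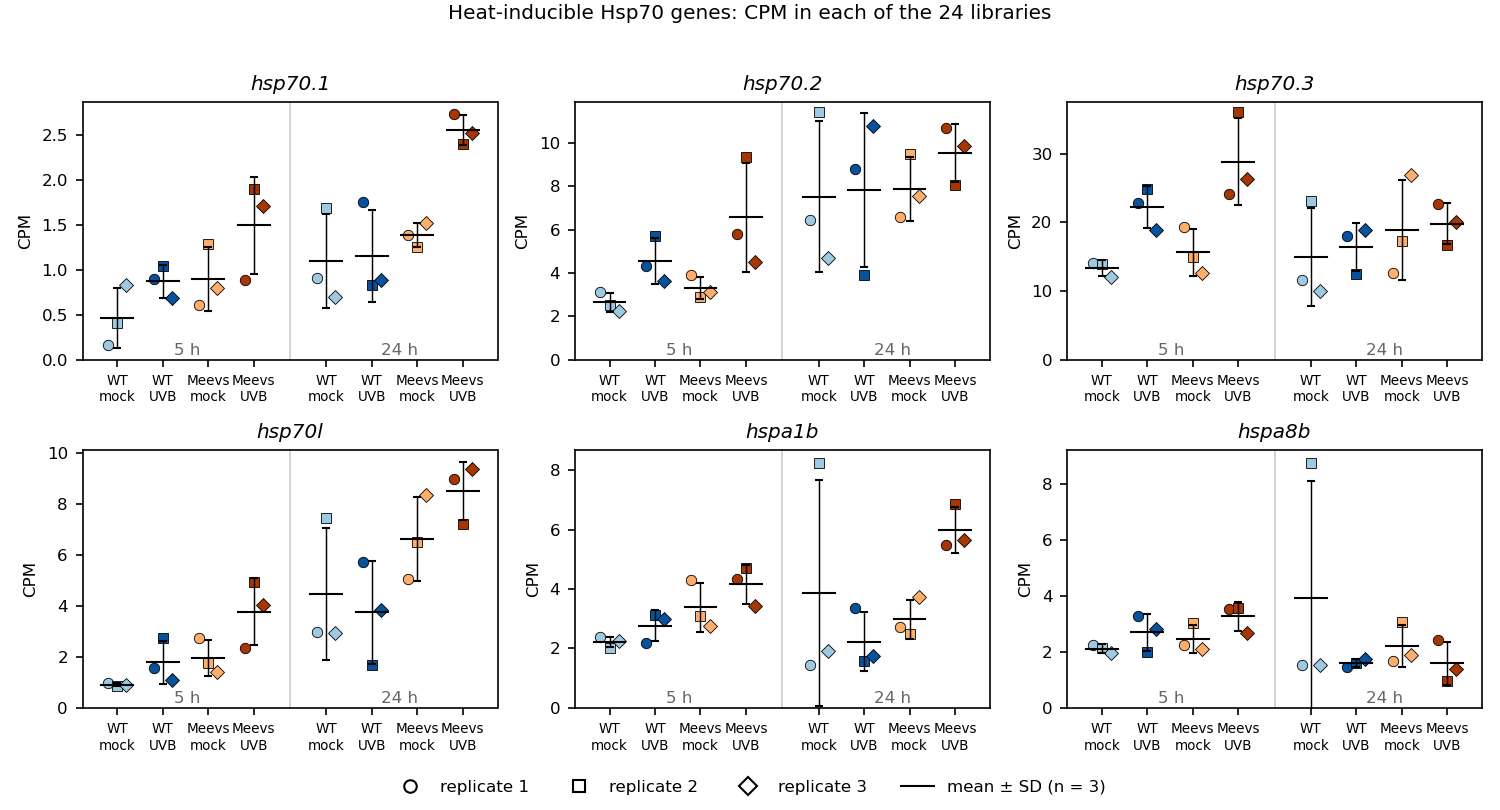
Levels in CPM (linear axis) of the 6 heat-inducible Hsp70 genes in all 24 libraries, with each library as a point and the mean ± SD of 3 libraries. Wild type (WT) mock replicate 2 at 24 h is the highest library of its group for all 6 genes, from 2.05 to 5.73 times the mean of the other 2.

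The response of the 2 genotypes at 5 h was then compared directly, as the difference of the 2 UVB effects. Of 90 genes 1 was higher and 3 were lower in Meevs, 4.44% against 5.12% of all genes (2.02% higher and 3.09% lower), so the count of differing chaperone genes was near the background. The 3 lower ones were hsp90b1 (-0.44 ± 0.09, adjusted p = 0.0032), dnajc3a (-0.59 ± 0.15, adjusted p = 0.0184) and dnajc15 (-0.49 ± 0.12, adjusted p = 0.0138), a J protein of mitochondrial import in mammals. The mock libraries of dnajc15 in Meevs were at 20.3, 19.9 and 20.8 CPM and the UVB libraries at 16.6, 15.1 and 15.6 CPM, without overlap, a fall of -0.37 ± 0.08 (adjusted p = 0.00127). In wild type the 2 groups overlapped, with 13.9, 16.9 and 15.3 CPM in mock and 16.8, 17.8 and 15.7 CPM after UVB.

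The gene with the more positive response in Meevs was dnajb5, a class B relative of dnajb1. It was at 5.09, 4.54 and 4.14 CPM in wild type mock and 4.26, 4.37 and 5.03 CPM after UVB, and at 3.23, 2.99 and 2.31 CPM in Meevs mock and 5.04, 4.54 and 5.04 CPM after UVB. Meevs mock libraries were the low ones, and after UVB the genotypes overlapped. The difference of effects was 0.77 ± 0.21 (adjusted p = 0.0275), but it was lost in 6 of 12 fits that left out a library, at adjusted p from 0.0585 without wild type UVB replicate 2 to 0.117 without Meevs mock replicate 3, the other libraries being wild type mock replicate 1, wild type UVB replicate 1 and Meevs UVB replicates 1 and 3. That of dnajc3a was lost in 3 fits (wild type mock replicate 3, wild type UVB replicate 2 or Meevs mock replicate 1; adjusted p from 0.051 to 0.0636), and those of hsp90b1 and dnajc15 remained in all 12.

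**Figure D4:**
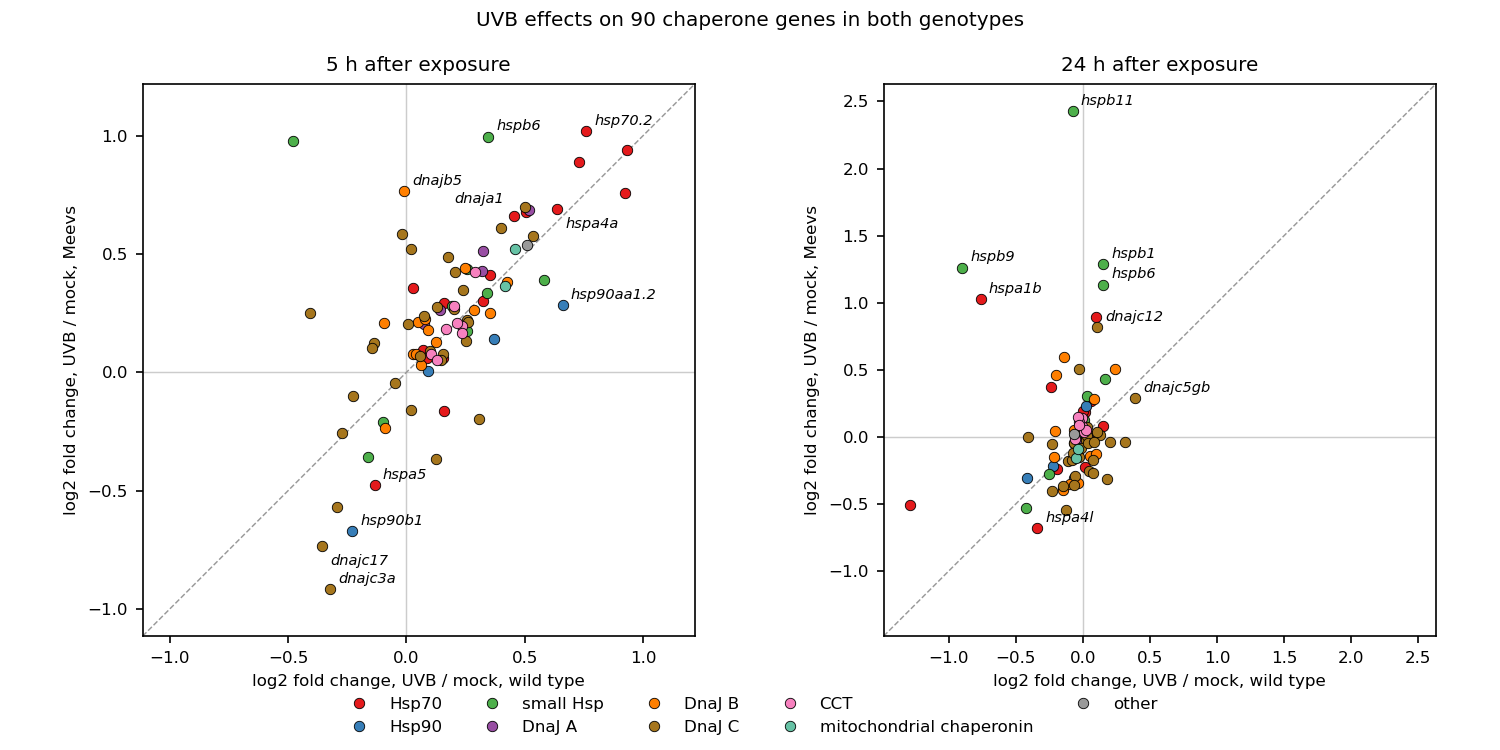
Effect of UVB on the 90 chaperone genes in Meevs (vertical axis, log2 fold change) against wild type (horizontal axis, log2 fold change) at 5 h and 24 h, with the dashed line marking equal effects and colours marking families. At 5 h most genes lie near the line, and at 24 h hspb11, hspb9 and hspb1 lie far above it.

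At 24 h after UVB, few chaperone genes were called in wild type. There 1 chaperone gene was higher and 2 were lower, 3.33% against 2.24% of all genes (1.74% higher and 0.506% lower). The 3 genes were hspb9 (-0.90 ± 0.23, adjusted p = 0.0318), hspa4l, a further Hsp110 gene (-0.34 ± 0.09, adjusted p = 0.0422), and dnajc5gb (0.39 ± 0.10, adjusted p = 0.041), and each call was lost in 4 to 6 of the 6 fits that left out a library. Without wild type mock replicate 2 all 3 were lost (hspb9 -0.565, adjusted p = 0.262) and hspb1 was called instead, at 0.453 ± 0.0794 (adjusted p = 0.00122). That library was set apart partly for its high hspb1, so its removal raises the hspb1 effect by construction. The gained call is therefore no independent support. The other libraries whose loss ended these 3 calls were mock replicate 3 and UVB replicates 2 and 3 for all 3 genes, mock replicate 1 for hspa4l and dnajc5gb, and UVB replicate 1 for dnajc5gb.

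In Meevs at 24 h, small Hsps rose. Of the 90 chaperone genes 12 rose and 11 fell, 25.6% against 20.4% of all genes (11.5% higher and 8.84% lower), and 6 of the 12 risers were small Hsps, whose median effect was 0.43. The gene hspb11, on chromosome 21 (20383837 to 20384878), was at 6.73, 3.71 and 5.69 CPM in Meevs mock and 24.2, 30.2 and 30.9 CPM after UVB. In wild type it was at 2.23, 5.12 and 2.41 CPM in mock and 3.89, 2.39 and 2.84 CPM after UVB. The Meevs UVB libraries were far above all others at this time, and the wild type groups overlapped. The rise in Meevs was 5.39-fold, an effect of 2.43 ± 0.21 (adjusted p = 1.66e-09), against -0.08 ± 0.25 in wild type (adjusted p = 0.945). That wild type effect includes mock replicate 2, the highest library of its group at 5.12 CPM. The difference between genotypes without that library is given below.

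The gene hspb1 encodes Hsp27, which protects actin filaments in stressed cells. At 24 h its levels were 24.6, 23.5 and 24.7 CPM in Meevs mock and 61.9, 63.0 and 52.9 CPM after UVB, and in wild type 19.7, 34.1 and 20.3 CPM in mock and 27.9, 26.0 and 28.1 CPM after UVB. In Meevs the lowest UVB library was far above the highest mock library, and in wild type mock replicate 2 was above every UVB library. It rose 2.44-fold in Meevs, by 1.29 ± 0.12 (adjusted p = 1e-08), and the wild type effect was 0.15 ± 0.12 (adjusted p = 0.662). The gene hspb9, whose mammalian relative is known from the testis, was at 44.03, 26.80 and 30.02 CPM in Meevs mock and 62.0, 101 and 78.7 CPM after UVB, and at 11.3, 25.6 and 17.6 CPM in wild type mock and 11.9, 7.05 and 10.1 CPM after UVB. Meevs groups were separate, and wild type groups overlapped through mock replicate 1. It rose 2.4-fold in Meevs (1.26 ± 0.21, adjusted p = 5.82e-05).

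**Figure D5:**
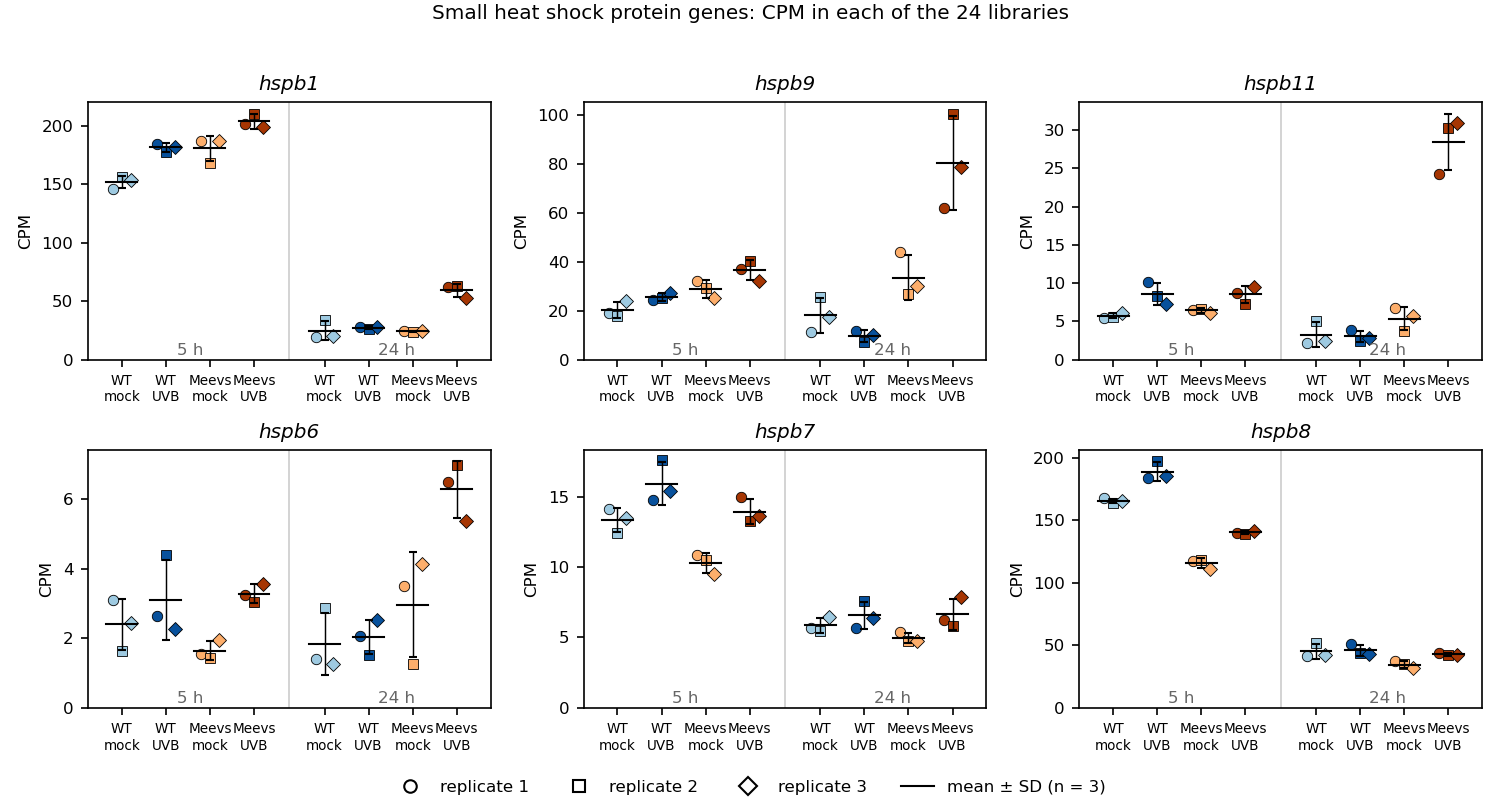
Levels in CPM (linear axis) of hspb1, hspb9, hspb11, hspb6, hspb7 and hspb8 in all 24 libraries, with each library as a point and the mean ± SD of 3 libraries. At 24 h the Meevs UVB points of hspb1, hspb9 and hspb11 lie above all other points of that time, while hspb1, hspb7 and hspb8 are higher at 5 h than at 24 h in every group.

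The small Hsps hspb6, hspb7 and hspb8 rose in Meevs at both times. For hspb6 (Hsp20 of muscle) the mock libraries at 24 h were at 3.51, 1.25 and 4.13 CPM and the UVB libraries at 6.49, 6.97 and 5.38 CPM. The groups were separate, with mock replicate 2 the lowest. The effect was 1.14 ± 0.31 (adjusted p = 0.00942), and 0.71 (adjusted p = 0.0895) without that library. For hspb7, the small Hsp of heart muscle, it was 0.43 ± 0.13 (adjusted p = 0.0173), lost without UVB replicate 3 (0.23, adjusted p = 0.251) or mock replicate 2 or 3 (adjusted p = 0.0787 and 0.0866). For hspb8, the partner of bag3 in the clearance of damaged filaments, it was 0.31 ± 0.08 (adjusted p = 0.00638), lost without mock replicate 3 (0.21, adjusted p = 0.11). At 5 h their effects in Meevs were 0.996 ± 0.36 for hspb6 (adjusted p = 0.0339), 0.44 ± 0.11 for hspb7 (adjusted p = 0.00393) and 0.28 ± 0.08 for hspb8 (adjusted p = 0.00518). The hspb6 call was lost in each of the 6 fits that left out a Meevs library (adjusted p from 0.056 to 0.106), hspb7 without mock replicate 3 (adjusted p = 0.0516) and hspb8 without UVB replicate 3 or mock replicate 3 (adjusted p = 0.0557 and 0.0819).

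At 24 h the difference between genotypes was tested as at 5 h, and 3 chaperone genes were called, 3.33% against 2.4% of all genes (1.66% higher and 0.739% lower). All 3 were small Hsps with the higher response in Meevs, namely hspb11 (2.51 ± 0.33, adjusted p = 2.89e-05), hspb9 (2.16 ± 0.31, adjusted p = 9.29e-05) and hspb1 (1.14 ± 0.17, adjusted p = 0.000212). They remained in all 12 fits that left out a library. Without wild type mock replicate 2 at 24 h the differences were 2.03 (adjusted p = 0.000157), 1.83 (adjusted p = 0.000532) and 0.834 (adjusted p = 2.44e-05). Without wild type mock replicate 1 or replicate 3 there were 5 calls. The heat-inducible hspa1b had a difference of 1.79 ± 0.55 that did not pass (adjusted p = 0.0899).

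Markers of other cell types moved after UVB within Meevs as well. In Meevs at 24 h, 11 of 18 markers of ciliated cells rose and none fell, with a summed level of 82.2 to 89.1 CPM in mock and 121.1 to 127.2 CPM after UVB. Of 11 heart muscle markers 5 rose (184.1 to 191.6 CPM and 213.6 to 261.7 CPM), of 15 keratinocyte markers 6 rose and 7 fell (29070 to 33770 CPM and 20480 to 28180 CPM), and of 23 skeletal muscle markers 1 rose and 2 fell (62490 to 85460 CPM and 63990 to 85510 CPM). The shares called were 61.1% for ciliated cells, 45.5% for heart muscle, 86.7% for keratinocytes and 13% for skeletal muscle, against 20.4% of all genes. The 15 lens markers had a median effect of -0.052 and 0 were called. Fewer markers were called in the difference between genotypes at 24 h. There 1 ciliated cell marker was higher, 1 keratinocyte marker was higher and 2 were lower, and 1 skeletal muscle marker was lower. For heart muscle and lens 0 were called. The shares were 5.56% for ciliated cells, 20% for keratinocytes and 4.35% for skeletal muscle, against 2.4% of all genes. None of these markers was at 0 in any library, and the part of these shifts in the small Hsp levels was not tested.

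Outside the small Hsps, the risers in Meevs at 24 h were few. None of the 6 heat-inducible Hsp70 genes passed the test there, with effects from -0.51 to 1.03 and a median of 0.32. The groups were separate for hspa1b (1.03 ± 0.39, adjusted p = 0.0615) and hsp70.1 (0.89 ± 0.34, adjusted p = 0.0651). With only the compared groups in the fit, 2 of the 6 were called higher. The class B gene dnajb6b, whose human relative holds back aggregation, went from 25.3, 31.3 and 23.5 CPM to 41.8, 37.8 and 35.2 CPM, separate groups with an effect of 0.51 ± 0.09 (adjusted p = 0.00014). The gene dnajc12, in humans the co-chaperone of the aromatic amino acid hydroxylases, went from 3.18, 3.14 and 3.91 CPM to 6.41, 5.94 and 5.58 CPM, also without overlap, and rose by 0.82 ± 0.15 (adjusted p = 0.000218). The constitutive hsp90ab1 rose by 0.23 ± 0.07 (adjusted p = 0.0253), a call lost in each of the 6 fits that left out a Meevs library (adjusted p from 0.06 to 0.158). The chaperone share of all counts was 1.57% to 1.63% in these mock libraries and 1.69% to 1.77% after UVB, of which hspa8 and hsp90ab1 made 55.4% to 56.2% and 58.6% to 60.6%.

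The 11 genes that fell in Meevs at 24 h included several that had risen at 5 h. Of the 40 risers of 5 h, 5 rose again at 24 h (dnajb1b, dnajc28, hspb6, hspb7 and hspb8) and 5 fell (dnaja1, dnajc11b, dnajc18, dnajc5ga and hspa4l). Over all genes 11.5% rose and 8.84% fell in Meevs at 24 h, so neither count was a clear excess. The same shares among all genes that rose at 5 h were not computed. None of the 5 repeated rises remained in every fit that left out a library at 24 h. Besides the small Hsp losses given above, dnajb1b was lost without UVB replicate 2 or mock replicate 2 or 3 (adjusted p from 0.0718 to 0.157) and dnajc28 without UVB replicate 2 or mock replicate 1 or 3 (adjusted p from 0.0512 to 0.174). Of the 5 falls, that of dnajc18 was lost without mock replicate 2 (adjusted p = 0.0585). The Hsp110 gene hspa4l had been at 9.49, 9.01 and 8.33 CPM in mock and 11.3, 12.5 and 10.5 CPM after UVB at 5 h. At 24 h it was at 18.8, 19.8 and 15.9 CPM in mock and 11.8, 11.1 and 11.3 CPM after UVB. UVB libraries were thus above mock at 5 h and below it at 24 h, with effects of 0.36 ± 0.10 (adjusted p = 0.00673, lost without UVB replicate 2 or mock replicate 3, adjusted p = 0.131 and 0.0891) and -0.68 ± 0.09 (adjusted p = 5.6e-06). For dnaja1 the libraries at 24 h were at 41.9, 41.3 and 45.2 CPM in mock and 34.3, 31.1 and 32.9 CPM after UVB, a fall of -0.38 ± 0.11 (adjusted p = 0.011). Both reticulum genes hsp90b1 (-0.31 ± 0.06, adjusted p = 0.000731) and hspa5 (-0.22 ± 0.08, adjusted p = 0.0349) were still lower, the latter call being lost without UVB replicate 2 or 3 (adjusted p = 0.0545 and 0.0601).

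A pair of vesicle co-chaperone genes was among the falls at 24 h. The gene dnajc5ab encodes a cysteine string protein of synaptic vesicles, and dnajc6 encodes auxilin, which strips clathrin from vesicles. In Meevs dnajc5ab went from 66.2, 71.9 and 70.8 CPM to 54.0, 53.1 and 55.1 CPM, and dnajc6 from 33.2, 35.2 and 34.5 CPM to 25.7, 22.5 and 29.5 CPM. The groups were separate for both genes. Their falls were -0.36 ± 0.07 (adjusted p = 0.000471) and -0.40 ± 0.11 (adjusted p = 0.0114), beside -0.15 ± 0.07 (adjusted p = 0.347) and -0.23 ± 0.11 (adjusted p = 0.35) in wild type. Among the relatives of dnajc5ab, dnajc5ga fell as well in Meevs, whereas dnajc5aa (-0.05 ± 0.09, adjusted p = 0.761), dnajc5b (-0.0039 ± 0.41, adjusted p = 0.996) and dnajc5gb (0.29 ± 0.11, adjusted p = 0.0553) did not pass. The mitochondrial dnajc11b fell by -0.54 ± 0.11 (adjusted p = 0.000729).

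Whether the effect of UVB differed between the times was tested within each genotype. Embryos were also older at 24 h, so time since UVB and stage cannot be told apart in these differences. In wild type the effect of 13 chaperone genes was lower at 24 h than at 5 h and that of 2 was higher, 15 of 90 or 16.7% against 4.89% of all genes (3.26% higher and 1.62% lower). Among the lower ones were hsp90aa1.2 (-0.88 ± 0.15, adjusted p = 0.000588), hspa4a (-0.83 ± 0.14, adjusted p = 0.000589) and dnaja1 (-0.66 ± 0.15, adjusted p = 0.0076), and these 3 remained in all 12 fits that left out a library. The count fell to 7 without wild type mock replicate 2 at 24 h and to 9 without wild type UVB replicate 1 at 5 h. In Meevs 30 effects were lower and 9 higher, 43.3% against 29.4% (15.1% higher and 14.3% lower). The higher ones were led by hspb11 (2.04 ± 0.31, adjusted p = 1.29e-05) and hspb1 (1.11 ± 0.17, adjusted p = 1.31e-05), and the lower ones included dnajb5 (-1.16 ± 0.23, adjusted p = 0.000294), dnaja1 (-1.07 ± 0.15, adjusted p = 6.01e-06) and hspa4l (-1.04 ± 0.14, adjusted p = 2.44e-06).

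Without UVB, the chaperone genes already differed between genotypes, in comparisons that share their mock libraries with the UVB effects above. Genotype coincides with library series here, and they cannot be told apart. At 5 h 37 were higher and 14 lower in Meevs mock than in wild type mock, 56.7% against 47.7% of all genes (24.5% higher and 23.2% lower). At 24 h 41 were higher and 13 lower, 60% against 52.7% (26.5% higher and 26.2% lower). All 8 CCT entries were higher in Meevs at both times, with median differences of 0.402 and 0.34 where the median of all genes was 0.03 and 0.023. The largest was the longer of the cct2 entries, at 265, 269.6 and 274 CPM in wild type and 374, 369 and 471 CPM in Meevs at 5 h, without overlap (0.59 ± 0.08, adjusted p = 2.1e-06). Both mitochondrial chaperonin genes were higher as well, hspe1 at 92.4, 91.8 and 91.9 CPM in wild type and 159.6, 151 and 180.4 CPM in Meevs at 5 h. Every Meevs library was above every wild type library, and the difference was 0.83 ± 0.08 (adjusted p = 1.24e-08) at 5 h and 0.90 ± 0.08 (adjusted p = 3.85e-09) at 24 h. Genotype differences also ran with gene span over all genes. Genes up to 10 kb had medians of 0.232 at 5 h and 0.276 at 24 h. Those of 10 to 30 kb had 0.057 and 0.051, and those over 100 kb -0.375 and -0.447. None of the CCT and chaperonin genes is over 30 kb, and the part of span in their differences was not tested.

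Further genes were higher in Meevs mock embryos at both times. They included dnajc9, a chaperone of histones in humans (0.80 ± 0.08, adjusted p = 3.27e-08, and 0.86 ± 0.09, adjusted p = 1.37e-08), and hsp90aa1.2 (0.80 ± 0.11, adjusted p = 1.65e-06, and 0.40 ± 0.11, adjusted p = 0.00255). Of the 10 reticulum genes 6 were higher at each time, where 24.5% and 26.5% of all genes were higher. The 6 included hspa5 (0.42 ± 0.08, adjusted p = 6.44e-05, and 0.51 ± 0.08, adjusted p = 4.01e-06) and hsp90b1 (0.44 ± 0.06, adjusted p = 3.2e-06, and 0.38 ± 0.06, adjusted p = 1.78e-05). Lower in Meevs were dnajc14 (-1.35 ± 0.18, adjusted p = 8.47e-07, and -1.34 ± 0.18, adjusted p = 8.27e-07), the divergent Hsp70 gene hspa12a (-1.12 ± 0.23, adjusted p = 0.00023, and -1.78 ± 0.21, adjusted p = 1.77e-07), and the synaptic dnajc5aa (-0.73 ± 0.10, adjusted p = 2.25e-06, and -1.01 ± 0.09, adjusted p = 2.37e-09) and dnajc5ab (-0.73 ± 0.07, adjusted p = 1.91e-08, and -0.59 ± 0.07, adjusted p = 1.65e-07). Without wild type mock replicate 2 at 24 h, 8 further genes were called at 24 h, among them hsp90aa1.1 (0.912) and hsp70l (1.15), and 1 was lost. Both named genes were among those that set that library apart, so its removal raises their differences by construction. Cell type markers differed here too. In Meevs mock at 5 h 16 of 23 skeletal muscle markers were higher and 2 lower (summed 30580 to 35940 CPM in wild type and 44560 to 56420 CPM in Meevs). Of 15 keratinocyte markers 10 were higher and 1 lower (20450 to 22160 CPM and 28750 to 30810 CPM). Of 15 lens markers 9 were higher, of 11 heart muscle markers 5 were higher and 4 lower, and of 18 ciliated cell markers 5 were higher. The shares called were 78.3%, 73.3%, 60%, 81.8% and 27.8% in that order, against 47.7% of all genes. The part of these shifts in the chaperone differences was not tested.

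Between the collection times, most chaperone genes differed in mock embryos. With both directions counted together the shares were near those of all genes, but falls outnumbered rises by more than they did over all genes. From 5 h to 24 h, 21 rose and 42 fell in wild type, 70% against 63.7% of all genes (30.2% higher and 33.5% lower). In Meevs 20 rose and 38 fell, 64.4% against 60.2% (28.7% higher and 31.5% lower). All 8 CCT entries fell in both (median -0.414 and -0.518). The 4 most negative effects in both genotypes were those of hspb1 (-2.63 ± 0.12, adjusted p = 8.14e-16, in wild type and -2.90 ± 0.13, adjusted p = 2.63e-16, in Meevs), hsp90aa1.1 (-1.92 ± 0.22, adjusted p = 1.51e-08, and -1.77 ± 0.21, adjusted p = 6.55e-08), hspb8 (-1.88 ± 0.08, adjusted p = 8.05e-17, and -1.75 ± 0.08, adjusted p = 6.42e-16) and hspb7 (-1.19 ± 0.12, adjusted p = 1.32e-09, and -1.05 ± 0.13, adjusted p = 5.25e-08). Rising genes included hsp70l (2.29 ± 0.44, adjusted p = 5.99e-05, and 1.73 ± 0.40, adjusted p = 0.000519), the auxilin gene dnajc6 (1.77 ± 0.12, adjusted p = 5.49e-13, and 1.67 ± 0.12, adjusted p = 7.56e-12) and dnajb4 (1.47 ± 0.16, adjusted p = 8.31e-09, and 1.59 ± 0.16, adjusted p = 3.31e-09). Both cct2 falls in Meevs were lost without mock replicate 3 at 5 h (adjusted p = 0.051 and 0.106). Without wild type mock replicate 2 at 24 h, 61 of the 63 wild type calls remained, and the effects were 1.71 for hsp70l (adjusted p = 0.00133), -2.93 for hspb1 and -2.48 for hsp90aa1.1. The median of the 6 heat-inducible Hsp70 genes was 1.07 in wild type and lay between 0.27 and 1.37 when single libraries were left out.

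Cell type markers shifted between the times as well. In wild type mock embryos the summed skeletal muscle markers were at 30580 to 35940 CPM at 5 h and 57880 to 69500 CPM at 24 h (15 of 23 rose and 6 fell). Heart muscle markers were at 207.7 to 213.6 CPM and 160.1 to 172.4 CPM (3 of 11 rose and 6 fell), and lens markers at 343.5 to 439.7 CPM and 1711 to 2330 CPM (14 of 15 rose). In Meevs 13 skeletal muscle markers rose and 6 fell, 3 heart markers rose and 6 fell, and 14 lens markers rose. Of 18 ciliated cell markers 10 fell in each genotype. Of 15 keratinocyte markers 6 rose and 3 fell in wild type, and 3 rose and 6 fell in Meevs. The shares called in wild type were 91.3% for skeletal muscle, 81.8% for heart, 93.3% for lens, 55.6% for ciliated cells and 60% for keratinocytes, against 63.7% of all genes. In Meevs they were 82.6%, 81.8%, 93.3%, 55.6% and 60%, against 60.2%. The part of these shifts in the chaperone levels was not tested.

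The regulators and helpers of these families were followed in a list of 60 further genes that the name rule does not take in. At 5 h 19 rose and none fell in wild type (31.7% against 12.7% of all genes, median 0.161), and 25 rose and 3 fell in Meevs (46.7% against 34.4%, median 0.159). Among the risers of both genotypes were ahsa1b, the activator of the Hsp90 ATPase (0.60 ± 0.09, adjusted p = 7.82e-05, and 0.57 ± 0.09, adjusted p = 1.97e-05), and the Hsp90 partner chordc1a (0.53 ± 0.11, adjusted p = 0.0025, and 0.76 ± 0.12, adjusted p = 1.75e-05). The factor genes rose in Meevs, hsf1 by 0.49 ± 0.12 (adjusted p = 0.00167) and hsf2 by 0.66 ± 0.09 (adjusted p = 1.22e-06), and the hsf2 response was higher in Meevs than in wild type (0.49 ± 0.12, adjusted p = 0.0162). That difference was lost without wild type UVB replicate 2, Meevs UVB replicate 1 or Meevs mock replicate 3 (adjusted p up to 0.104). In mock embryos hsf1 was lower in Meevs than in wild type at both times. The differences were -0.766 at 5 h (adjusted p = 6.93e-06) and -0.952 at 24 h (adjusted p = 2.88e-07), and both remained in every fit that left out a library. The reticulum exchange factor sil1 fell in Meevs (-0.53 ± 0.09, adjusted p = 4.19e-05). At 24 h in wild type the median effect of the list was 0.005.

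In Meevs at 24 h 4 genes of that list rose and 2 fell, 10% against 20.4% of all genes. Among the risers was bag3, which pairs Hsp70 with hspb8, at 12.5 to 13.2 CPM in mock and 19.8 to 24.4 CPM after UVB (0.81 ± 0.10, adjusted p = 9.51e-07). Its response differed between genotypes (0.69 ± 0.14, adjusted p = 0.00532). The Hsp90 partner and glucocorticoid-responsive gene fkbp5 was at 10.2 to 35.8 CPM in mock and 69.2 to 92.2 CPM after UVB, and it rose by 1.61 ± 0.36 (adjusted p = 0.00178), with a difference between genotypes of 2.10 ± 0.53 (adjusted p = 0.0293). That difference was lost without wild type mock replicate 2, wild type UVB replicate 1 or 2, Meevs UVB replicate 2 or Meevs mock replicate 2 (adjusted p from 0.0611 to 0.233), with a range of 1.23 to 2.63 over the 12 fits. In wild type fkbp5 ranged from 6.15 to 22.8 CPM in mock and from 5.30 to 13.8 CPM after UVB. UVB libraries were above mock libraries for both genes in Meevs, whereas for fkbp5 the wild type groups overlapped.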

How the data were processed

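Counts per gene were deposited by the authors as whole numbers, not normalized. The submitters' processing notes name cutadapt 1.16, STAR 2.7.9a, featureCounts 1.6.3, DESeq2 1.36.0 and the build GRCz11. No source used here states the settings or whether counting used the strand that the directional poly(A) kit keeps, and genes overlapping on opposite strands may share reads. The authors' tables of comparisons and normalized values were not used.

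Counts were analysed with edgeR 4.0.16 in R 4.3.3: TMM scaling, filterByExpr by group (22340 genes kept), 1 mean per group over all 24 libraries, quasi-likelihood F-tests of 12 contrasts, and Benjamini-Hochberg adjustment over all tested genes of a contrast at 0.05. The standard error is the log2 fold change divided by the square root of F. Counts with known changes were simulated to check the script. Alternatives were DESeq2 1.42.0, its size factors, no filter, a replicate block, only the compared groups, each library left out in turn, and 4 libraries left out.

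The members and lists were chosen with earlier results of these data known. Named genes were up to 6 highest and 4 lowest called members per UVB effect, up to 4 each way in other contrasts (mean of at least 1 log2 CPM), and a set of standard chaperones. Other names (dnajb12a, dnajb12b, dnajb14, dnajc1, dnajc10, dnajc16, dnajc18, dnajc25, dnajc28, dnajc5b, dnajc5ga and genes outside the families) were picked after their values were seen. Replicate numbers did not pair samples: deviations from group means correlated between -0.213 and 0.136 for the same number and between -0.172 and 0.168 for other numbers. No sequence is printed.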

Additional observations from a re-analysis of the deposited data

Results flagged for a closer look

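Differences between the effects of UVB in different genotypes or at different times, called by edgeR's quasi-likelihood test of the difference, are listed here for the chaperone genes named by the rule. In Meevs minus wild type at 5 h they were 0.77 for dnajb5, -0.59 for dnajc3a, -0.49 for dnajc15 and -0.44 for hsp90b1 on the log2 scale. In Meevs minus wild type at 24 h they were 2.51 for hspb11, 2.16 for hspb9 and 1.14 for hspb1.

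For the effect at 24 h minus that at 5 h, wild type embryos gave 0.68 for dnajc5gb, 0.35 for dnajc3b, -1.24 for hspb9, -0.88 for hsp90aa1.2, -0.83 for hspa4a and -0.66 for dnaja1. Of these, hspb9 rested in part on wild type mock replicate 2 at 24 h: without it the difference was -0.90 (adjusted p = 0.102). It was also lost without mock replicate 2 at 5 h or UVB replicate 2 at 24 h (adjusted p = 0.0546 and 0.0657), and the dnajc3b call was lost in 8 of 12 fits that left out a library. Meevs embryos gave 2.04 for hspb11, 1.11 for hspb1, 0.92 for hspb9, 0.86 for dnajc5gb, -1.16 for dnajb5, -1.07 for dnaja1, -1.04 for hspa4l and -1.03 for dnajc11b. The hspb9 call in Meevs was lost without UVB replicate 3 or mock replicate 1 at 5 h, or without UVB replicate 2 or mock replicate 2 at 24 h (adjusted p from 0.0503 to 0.0675).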

How the results depend on the processing

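No effect called for a named gene changed its sign under any alternative run. Without wild type mock replicate 2 at 24 h, the 1 higher and 2 lower calls in wild type were all lost and 1 other gene was called higher. With only the libraries of the groups compared in the fit, the wild type count at 24 h was 1 in place of 3. Leaving out 1 library at a time gave 16 to 28 chaperone calls for UVB in wild type at 5 h, 0 to 2 at 24 h, 34 to 41 in Meevs at 5 h and 18 to 23 at 24 h. It gave 2 to 6 for the genotype difference at 5 h (2 without wild type UVB replicate 2) and 3 to 5 at 24 h, 7 to 20 for the time difference in wild type and 33 to 38 in Meevs, 45 to 50 and 49 to 61 for mock genotypes at 5 h and 24 h, and 58 to 62 and 50 to 56 for mock development in wild type and Meevs. With the replicate number as a block, which the check of the numbers does not back, the 12 counts were 27, 2, 46, 23, 4, 3, 13, 40, 51, 54, 63 and 56 in the order of the wild type and Meevs pairs above (UVB wild type 5 h and 24 h, UVB Meevs 5 h and 24 h, genotype difference, time difference, mock genotype, mock development). DESeq2's size factors gave 0 higher and 2 lower in wild type at 24 h, 12 higher and 14 lower in Meevs at 24 h, and 2 and 3 for the genotype difference at 5 h. Of 209 results for named genes, DESeq2's test ended 1 call and added 3, and leaving out the 4 libraries ended 12 and added 4. Low counts limit dnajc22, which was not tested.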
